A study of Xenopus tropicalis with 16 samples.

Results

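The 4 animal cap libraries of the neurula stage (NF16) were examined, out of 16 libraries in the series. They were chosen by the stage in their labels, and they comprise 2 libraries from explants injected with control morpholino (CoMo) and 2 from explants injected with morpholinos against both SUV4-20H1 and SUV4-20H2 (knockdown, KD). All of them are from Xenopus tropicalis, and both groups carry an injected morpholino and were cultured as explants. The other 12 libraries, 3 control and 3 KD each at gastrula (NF10) and tailbud (NF24), were used only to place the NF16 values. At NF16 the KD lowered a large set of genes and raised another by smaller amounts (with TMM scaling more genes fell than rose, with total counts slightly fewer), and the genes lowered were mostly genes that stood higher at tailbud than at gastrula in control explants.

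SUV4-20H1 and SUV4-20H2 (KMT5B and KMT5C) are histone methyltransferases. They act on histone H4 that PR-SET7 (KMT5A) has already monomethylated at H4K20, and convert it to the dimethylated and trimethylated states. Dimethylated H4K20 is spread widely over chromatin, and the trimethylated form is known as a mark of compacted, silenced regions. An animal cap (AC) is prospective ectoderm cut from the blastula, which develops in culture into a mucociliary epidermis with multiciliated cells, mucus-secreting goblet cells and ionocytes. The multiciliated cells are specified early and grow their cilia in the later epidermis.

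A translation-blocking morpholino is an antisense oligomer that keeps ribosomes from starting on its mRNA and need not change the level of that mRNA. Each library was made from pooled ACs, and the series describes the replicates as biological. The p-values measure the spread between such pools. The gene identifiers of the files could not be matched to symbols (0 matches), so the levels of the target mRNAs and of cell type markers were not analysed here, and the labelled tissue was not checked against its markers. Because the RNA is from whole explants, fewer cells of a type and less RNA per cell cannot be told apart in any value given here.

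The NF16 control libraries held 14218600 and 40286023 fragments assigned to genes, and the KD libraries 21938081 and 14486551. The other stages ranged from 10692685 to 28121447. Within each NF16 group, neither library repeated the other. A chi-square test on the counts gave 76.4 per degree of freedom between the controls and 155 between the KDs, where sampling noise alone gives about 1. Controls were not compared with KDs in this way. Several library values moved with the groups. The outside-gene share was 31.2% and 31.4% in controls and 36.7% and 32.1% in KDs. It is the part of fragments with no gene on the counted strand, out of those and the assigned fragments together. It can include fragments on the strand opposite to a gene. Fragments on the strand opposite to a gene made up 1.2% and 1.23% in controls and 1.55% and 1.45% in KDs. In controls 10609 and 10547 genes reached 1 CPM, against 10415 and 10270 in KDs. CPM is counts per 1000000 assigned fragments, with library sizes scaled by TMM factors. These factors were 0.808 and 0.734 in the NF16 controls and 0.852 and 0.854 in the KDs. Thus 1 CPM stood for fewer counts per assigned fragment in the controls. The 10 most abundant genes took 17.1% and 17.5% of assigned fragments in controls and 15.5% and 12.3% in KDs. The outside-gene share, the opposite-strand share, the number of genes at 1 CPM and the share of the top 10 genes each separated the groups. Each gave 0.333 in a two-sided exact permutation test, which is the lowest p that a design of 2 and 2 libraries can reach. The unmapped share overlapped, at 26.1% and 21.6% in controls and 27.1% and 25.6% in KDs (exact permutation p 0.667). At NF24 the unmapped share was 24%, 31.4% and 34% in controls and 51.2%, 31.3% and 40.5% in KDs. The outside-gene share there was 39.3%, 42.9% and 47.7% in controls and 52.5%, 43.3% and 54.3% in KDs. The part of these library values in the gene results was not tested.

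The main comparison asked which genes respond to loss of both enzymes at neurula. Of 14373 genes in the files, 808 had no read at NF16 and 1176 were read in too few libraries, which left 12389 genes (1 read or more in 3 of the 4 libraries). In the quasi-likelihood test of edgeR 2536 genes differed at an adjusted p below 0.05, or 20.5% of those tested. Of these, 978 were higher in the KD (7.89% of tested genes) and 1558 were lower (12.6%). At an unadjusted p under 0.05 there were 4321 genes. The split depended on scaling. With total counts in place of TMM factors, 1427 genes were higher and 1398 lower, and the median log2 change of all tested genes moved from 0.04 to 0.18. The count also changed when a library was left out. It fell without either control and rose without either KD, for higher and for lower genes alike. With 1 library left in a group, the spread comes from the other group alone. Whether the result leaned on a particular library was not tested.

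**Figure D1:**
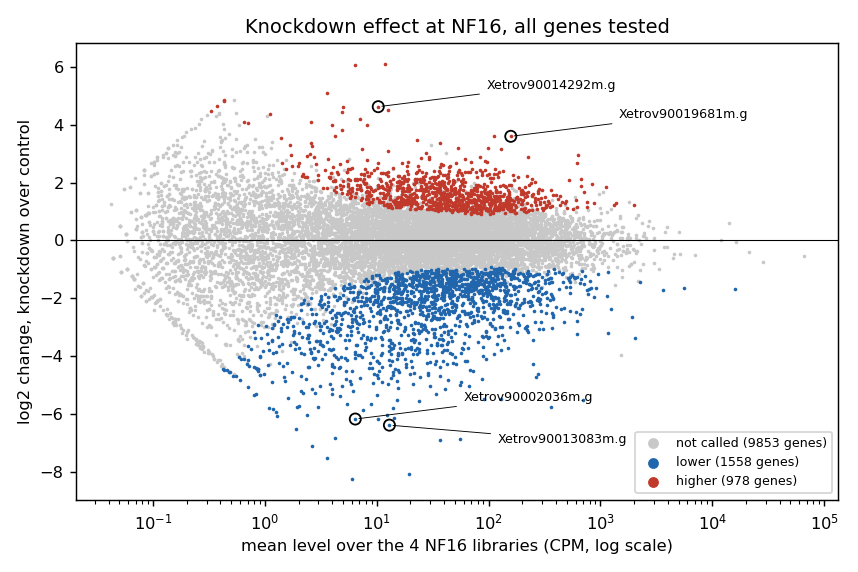
Log2 change of the KD over the control at NF16 (vertical axis) against the mean level over the 4 NF16 libraries in CPM (horizontal axis, log scale), 1 point for each of 12389 genes. Red points are the 978 genes called higher and blue points the 1558 called lower, the blue cloud reaches further from 0 than the red one, and the circled points are the identifiers described in the text.

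The drops were larger than the rises. The median log2 change was 1.55 among the higher genes and -2.07 among the lower genes. A change of at least 2 on the log2 scale was reached by 824 lower genes (52.9% of them) and by 223 higher genes (22.8%). At a change of at least 3 the counts were 397 lower and 34 higher genes, and at a change of at least 4 they were 174 and 16. Only 14 lower and 17 higher genes passed the test with a change under 1. The KD and control ranges did not overlap for 2534 of the 2536 genes called. Across all tested genes the ranges were separate for 64.2%, with the KDs above in 30.6% and below in 33.5%, so that separation by itself is common with 2 libraries a side. When a change had to exceed 1 on the log2 scale to be called, 840 genes passed, 157 higher and 683 lower.

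The response extended over most of the range of expression. Tested genes were divided by their mean level over the 4 NF16 libraries into 5 groups of 2477 or 2478 genes. In the lowest group, at 0.042 to 2.33 CPM, 4.8% of genes were called, 18 higher and 101 lower. The next group, up to 13.2 CPM, had 20.7% called, 165 higher and 347 lower. Between 13.2 and 37.2 CPM 27.2% were called, with 258 higher and 415 lower. Between 37.2 and 98.3 CPM 27.4% were called, with 310 higher and 369 lower. Above 98.3 CPM 22.3% were called, with 227 higher and 326 lower. Lower genes outnumbered higher genes in each group. Of the 100 most abundant genes of the NF16 controls, which took 32.6% and 32.9% of the assigned fragments there, 15 fell and 0 rose, where 12.6% of all tested genes fell and 7.89% rose. Choosing genes by their level in these controls favours falls, so the 2 counts are a description.

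The called genes made up a sizeable part of the counted RNA. The 1558 lower genes took 18.9% and 16.2% of assigned fragments in the NF16 controls and 5.25% and 5.66% in the KDs. The same genes took 3.82% to 4.67% in the 6 NF10 libraries, just under the NF16 KDs. In the NF24 controls they took 20.1%, 18%, and 18.5%, and in the NF24 KDs 16%, 18.7% and 11.8%. The 978 higher genes took 3.01% and 3.41% in the NF16 controls and 9.84% and 10.2% in the KDs. At NF10 they took 13.7% to 15.1%, above all NF16 libraries. At NF24 the higher genes took 3.69%, 4.04% and 3.99% in controls and 5.21%, 4.18% and 6.29% in KDs, where each KD lay above each control. The NF16 libraries chose these genes, so the gap between the NF16 groups is a description, whereas the NF10 and NF24 levels took no part in the choice.

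**Figure D2:**
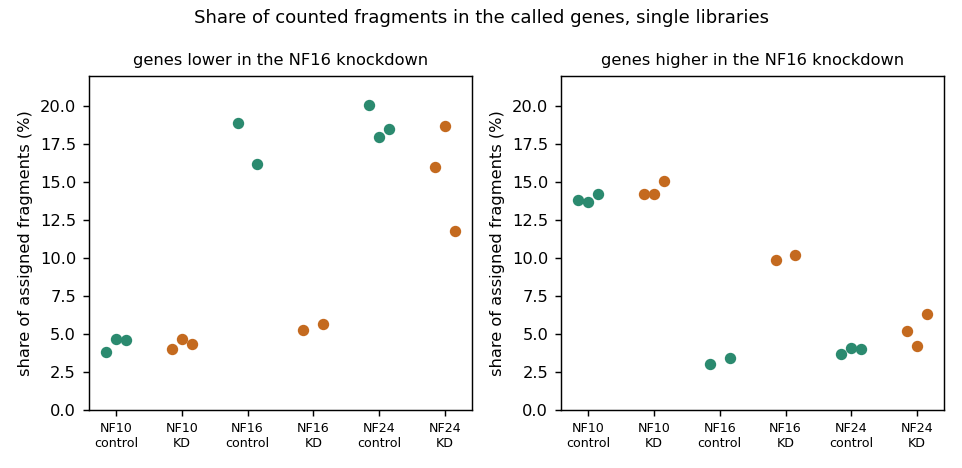
Share of assigned fragments (%) taken by the 1558 genes lower in the NF16 KD (left) and the 978 genes higher in it (right), 1 point for each of the 16 libraries, controls in green and KDs in orange. The NF16 KDs lie at 5.25% and 5.66% for the lower genes, close to the NF10 libraries, and at 9.84% and 10.2% for the higher genes, between the NF10 libraries and the NF16 controls.

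Single identifiers show what these changes looked like in each library. The rule asked for the genes with the largest log2 changes each way, with a mean of 5 CPM or more over the 4 NF16 libraries and with separate groups, among genes without NF10 reads. The highest such mean among tested genes without NF10 reads was 2.88 CPM, so none qualified. Genes with a mean under 0.1 CPM over the 6 NF10 libraries were taken instead, which left 53 candidates among the lower genes and 1 among the higher. Xetrov90013083m.g stood at 36.4 and 14.8 CPM (418 and 439 reads) in the NF16 controls and at 0.16 and 0.485 CPM (3 and 6 reads) in the KDs. It was thus well expressed in both controls and close to 0 in both KDs. The log2 change was -6.38, with an approximate SE of 0.70 and an adjusted p of 0.000777 (edgeR). The 6 NF10 libraries held it at 0 to 0.16 CPM, and the NF16 KDs lay at the top of that range and above it. By NF24 it reached 54.2, 27.7 and 28.5 CPM in controls and 28.5, 23.2 and 8.21 CPM in KDs, and its NF24 log2 change of -0.90 did not pass the test (adjusted p 0.546 by edgeR). The effects at NF24 and NF16 differed by 5.48 on the log2 scale (interaction, adjusted p 0.032 by edgeR). The difference of the NF16 from the NF10 effect, -5.59, did not pass the test (interaction, adjusted p 0.124 by edgeR).

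Xetrov90002036m.g was even in the NF16 controls, at 12.4 and 12.9 CPM (142 and 383 reads), and rested on 1 and 4 reads in the KDs (0.0535 and 0.323 CPM). The log2 change was -6.17, with an approximate SE of 0.70 and an adjusted p of 0.000885 (edgeR). Unlike the gene before it, this one was low at both other stages. It stood at 0 to 0.16 CPM at NF10, at 0.201, 0.332 and 3.18 CPM in NF24 controls and at 0.273, 0.849 and 2.85 CPM in NF24 KDs. Its highest levels were those of the NF16 controls, and at NF24 the groups overlapped (log2 change 0.10, adjusted p 0.981 by edgeR).

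Xetrov90014292m.g was the only higher gene that met the rule. It stood at 0.174 and 1.25 CPM (2 and 37 reads) in the NF16 controls and at 13.2 and 26.6 CPM (247 and 329 reads) in the KDs. The log2 change was 4.63, with an approximate SE of 0.70 and an adjusted p of 0.00243 (edgeR), and it was 6.71 without control replicate 2, the control with most of its reads. All 12 libraries of the other stages lay below the NF16 KDs. NF10 libraries held 0 to 0.339 CPM, NF24 controls 0.0503, 0.222 and 0.27 CPM, and NF24 KDs 1, 0.546 and 3.84 CPM. Each NF24 KD lay above each NF24 control, but the NF24 log2 change of 3.26 did not pass the test (adjusted p 0.375 by edgeR). The NF24 KDs rested on 11, 9 and 43 reads, with 14, 22 and 37 on the opposite strand. The NF24 controls held 1, 4 and 5 reads, with 10, 2 and 7 on the opposite strand.

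A second higher gene, Xetrov90019681m.g, was chosen after its values were seen, as the largest rise among genes of at least 100 CPM whose NF16 KDs exceeded all 8 controls of the series. It stood at 18.7 and 29.6 CPM in the NF16 controls and at 397 and 186 CPM in the KDs, a log2 change of 3.6 with an approximate SE of 0.45 and an adjusted p of 0.00115 (edgeR). Outside NF16, controls stood at 96.2, 48.3 and 21.3 CPM at NF10 and at 1.61, 1.55 and 2.86 CPM at NF24, which places the gene among those that fall with stage. The NF10 KDs, at 90.8, 42 and 57.6 CPM, overlapped the NF10 controls. The NF24 KDs, at 39.1, 15.9 and 103 CPM, lay above the NF24 controls, with a log2 change of 4.71 that did not pass the test (adjusted p 0.251 by edgeR).

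**Figure D3:**
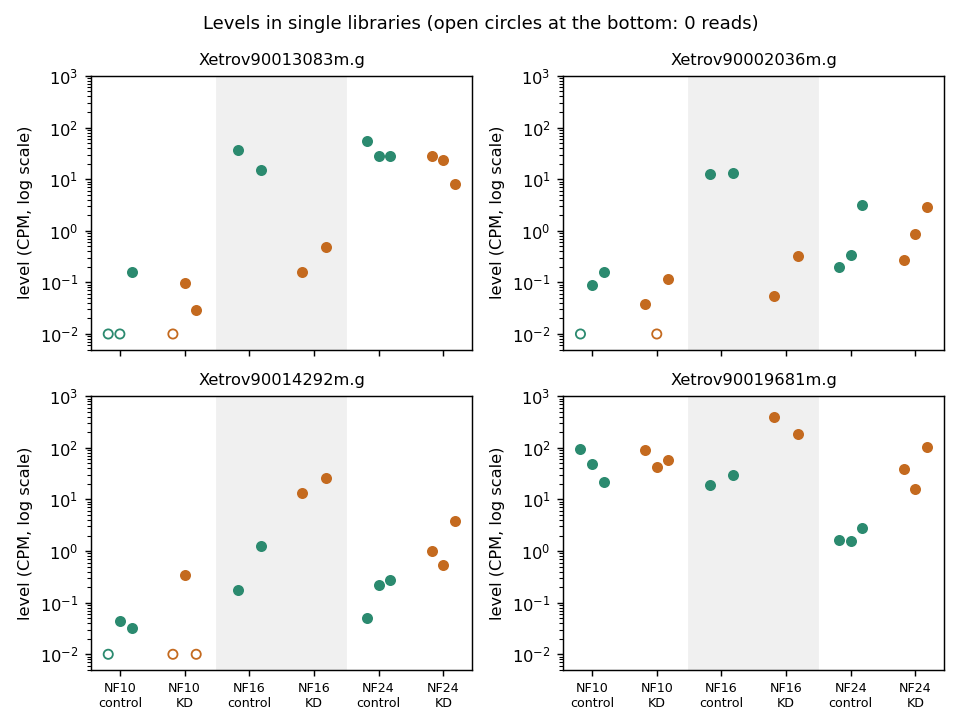
Level of 4 identifiers in CPM (log scale) in each of the 16 libraries, controls in green and KDs in orange, with NF16 shaded and libraries without a read drawn as open circles at the bottom. At NF16 the KDs lie below both controls for Xetrov90013083m.g and Xetrov90002036m.g and above both for Xetrov90014292m.g and Xetrov90019681m.g.

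Genes silent at gastrula were followed separately, since a filter over all stages removes them. No read in any of the 6 NF10 libraries was recorded for 887 genes, and 497 of these had none at NF16 either. The filter left 93 of them. They were sparse, with a median of 0.267 CPM at NF16, against 23.4 CPM over all tested genes, and none exceeded 133 reads in an NF16 library. The lowest level group, at 0.042 to 2.33 CPM, holds the median of 0.267 CPM. It had 4.8% of its genes called, 18 higher and 101 lower, so calls at such levels were mostly lower in any case. Of the 93 genes 9 were called (9.68%, against 20.5% of all tested genes), all 9 of them lower. Their log2 changes ran from -5.28 to -2.93 with a median of -3.66, and their mean control levels from 0.933 to 5.51 CPM, with at most 0.43 CPM in the KD. At NF24, whose libraries took no part in the choice, 5 of the 9 genes had a negative log2 change. The count moved with the filter. With reads required in only 2 of the 4 libraries 15 of 218 such genes were called (6.88%, against 19.8% of the 12995 genes tested with that filter), all lower. That filter also admits genes read in the controls alone, whose direction is fixed by it. Without control replicate 1 the count was 2, and without control replicate 2 it was 5.

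Some transcripts were read in only 1 of the NF16 groups. Both controls and neither KD held reads of 221 genes, and the reverse held for 61. These counts favour the deeper group, and after thinning of each library to 14218600 fragments they were 184 and 114. With at least 5 reads in each library of the group that had reads, 50 genes were found in controls alone and 5 in KDs alone, or 35 and 10 after thinning. With at least 10 reads the counts were 28 and 0 before thinning, and they were not taken after it. Of these 28 genes, 27 were read in all 3 NF24 KDs. Of the 221 genes, 141 were read in all 3 NF24 controls and 117 in all 3 NF24 KDs. None of these genes could enter the test, which required reads in 3 libraries.

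The NF16 changes were next set against the normal course of expression. Each tested gene was placed in a class from the NF10 and NF24 controls only, so that no NF16 library entered. Rising genes were at least 1 higher on the log2 scale at NF24 with separate ranges, falling genes the reverse, flat genes differed by less than 1, and the remainder were set apart as other. Of the 3833 rising genes, 1198 (31.3%) were lower in the NF16 KD and 63 (1.64%) higher, against 12.6% and 7.89% of all tested genes. Of the 3305 falling genes, 609 (18.4%) were higher and 44 (1.33%) lower. The 4523 flat genes split nearly evenly, with 280 higher (6.19%) and 263 lower (5.81%). Of the 728 other genes 26 were higher and 53 lower.

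**Figure D4:**
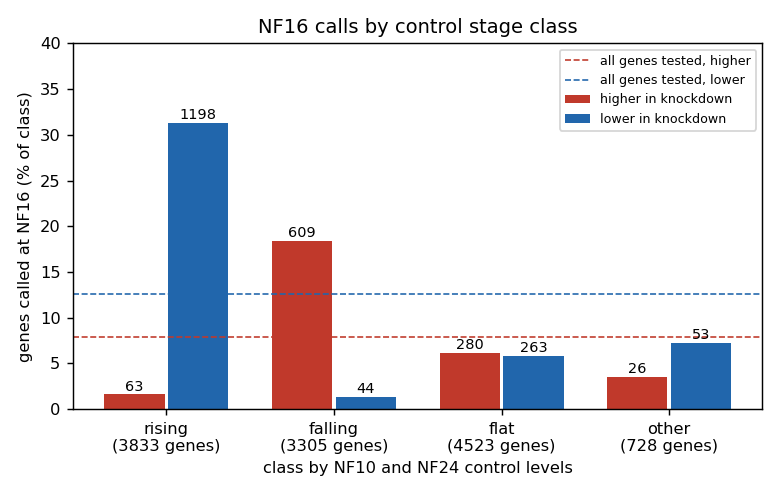
Share of each control stage class (%) called higher (red bars) or lower (blue bars) in the NF16 KD, with the number of genes above each bar, and dashed lines at the shares over all tested genes, 7.89% and 12.6%. Lower genes exceed their line in the rising class (1198 genes) and higher genes exceed theirs in the falling class (609 genes).

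Rising genes thus held 76.9% of all lower genes while making up 30.9% of those tested, and falling genes held 62.3% of the higher genes while making up 26.7%. The shift was not limited to called genes. The median log2 change over all rising genes was -0.82, with 2873 of them (75%) negative, and over all falling genes it was 0.57, with 2574 (77.9%) positive. The flat genes had a median of 0.07, and all tested genes 0.04. Exceptions ran in both classes, since 63 rising genes were higher still in the KD and 44 falling genes were lower still.

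The level of each class in single libraries was expressed as the median log2 difference to the mean NF10 control. Rising genes stood at 2.46 and 2.42 in the NF16 controls and at 1.80 and 1.51 in the KDs, so that both KDs lay between the NF10 and the NF16 controls. At NF24 the same genes reached 2.87, 2.91 and 2.98 in controls and 3.04, 2.92 and 2.83 in KDs, which overlapped. Falling genes stood at -1.74 and -1.63 in the NF16 controls and at -1.28 and -1.04 in the KDs. Their NF24 medians were -2.06, -1.95 and -2.11 in controls and -2.04, -1.88 and -1.96 in KDs. The flat genes stood at -0.13 and 0 in the NF16 controls and at 0 and 0.03 in the KDs. In both moving classes KD replicate 2 lay further from the controls than KD replicate 1. Scaling by total counts only was an alternative added after the data had been seen. With it the rising genes stood at 2 and 1.80 in the NF16 controls against 1.40 and 1.14 in the KDs. The falling genes stood at -2.26 and -2.28 against -1.72 and -1.49. The flat genes stood at -0.62 and -0.62 against -0.43 and -0.38, so with this scaling they too were higher in the KDs.

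**Figure D5:**
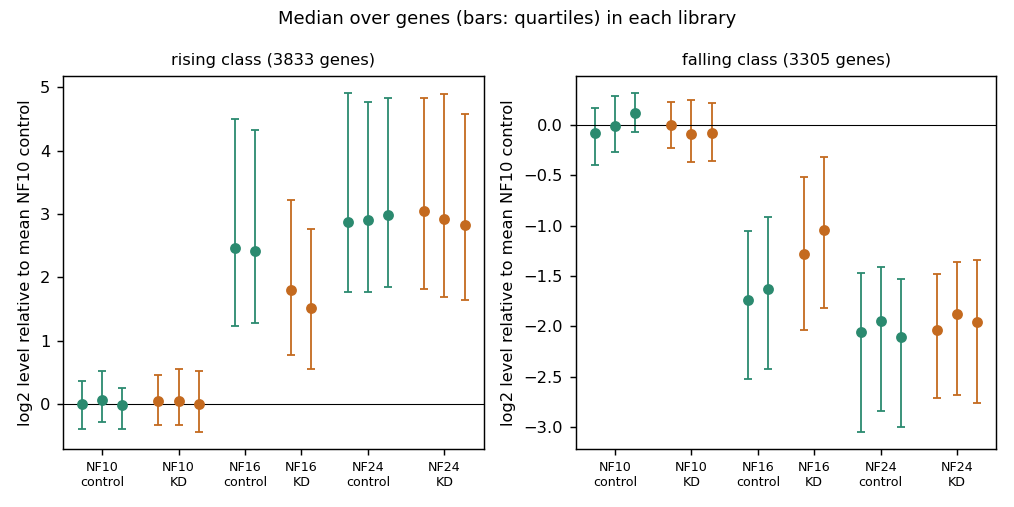
Median log2 level of the 3833 rising genes (left) and the 3305 falling genes (right) relative to the mean NF10 control, 1 point for each library with bars from the lower to the upper quartile over genes, controls in green and KDs in orange. The NF16 KDs lie at 1.80 and 1.51 for rising genes and at -1.28 and -1.04 for falling genes, between the NF10 and NF16 controls, and at NF24 both groups lie close together.

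The KD level of each called gene was then compared with the range of the 3 NF10 controls. Among the lower genes, the mean of the NF16 KDs was above that range for 936, within it for 332 and below it for 290. The lower genes thus lay outside the gastrula range in 78.7% of cases and the higher genes in 75.3%, close to the 74.8% of all tested genes (5129 above, 3118 within and 4142 below). Of the 1198 rising genes among the lower set 909 were above it, 212 within and 77 below. Among the higher genes, 382 were below the NF10 range, 242 within it and 354 above. In the 609 falling genes among them these counts were 358 below, 175 within and 76 above. Among the 280 flat genes of the higher set 204 were above the NF10 range, 54 within and 22 below. The NF10 controls also served to define the classes. By definition, flat genes stay close to their gastrula level in tailbud controls, whereas falling genes drop below it. The contrast between classes is thus partly built in, and the counts by class are a description. No such counts are given for all tested genes of a class.

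A further group of genes left the range of every control. Both NF16 KDs exceeded all 8 controls of the 3 stages for 231 higher genes, which was 23.6% of them, where 5.48% of all tested genes did so. Flat genes made up 141 of these, falling genes 60, rising genes 22 and other genes 8. Both KDs lay below all 8 controls for 213 lower genes (13.7%), against 5.86% of tested genes. Here flat genes made up 128, rising genes 60, falling genes 18 and other genes 7. The NF16 controls are among the 8 and also chose the called genes, so the higher shares among called genes are a description. The parts of the classes are a description too. Flat genes have close NF10 and NF24 control means by definition, whereas rising and falling genes have controls spread over a wider range. The large part of flat genes is thus partly built in.

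The KD libraries were also set against the controls one at a time. The test favours genes on which both KDs are alike, so their likeness among called genes is partly built in. Taken against the mean control, the higher genes had a median log2 difference of 1.53 in each KD, and the lower genes had -2.18 in KD replicate 1 and -2 in replicate 2. KD replicate 1 was further from the controls for 899 of the lower genes and KD replicate 2 for 659. Among the higher genes the counts were 443 and 535, and over all tested genes 6317 and 6072. The KDs differed from each other by more than 1 on the log2 scale for 306 lower genes (19.6%) and 110 higher genes (11.2%), where 20% of all tested genes did. The median absolute difference between the KDs was 0.54 among the lower genes, against 0.33 between the controls. Among the higher genes it was 0.36, against 0.38, and over all tested genes 0.47, against 0.36.

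A change of the KD effect between stages was tested in a fit of all 6 groups. The NF16 effect differed from the NF10 effect for 485 genes (3.91% of those tested), and was more positive at NF16 for 186 and more negative for 299. The NF24 effect differed from the NF16 effect for 206 genes (1.66%), and was more positive at NF24 for 137 and more negative for 69. These comparisons share the NF16 libraries. Of the 485 genes 484 were also called at NF16, and of the 206 genes 203 were. The directions are thus not independent of the NF16 calls. DESeq2 gave 1340 and 960 genes, and a block for the replicate numbers within each stage gave 2139 and 1757. Both edgeR counts were lower when any 1 of the NF16 libraries was left out, which leaves 1 library in its group. The tests of NF10 and NF24 on their own called 0 of the same 12389 genes in edgeR, with 53 and 1254 genes at an unadjusted p under 0.05. Without any effect, about 5% of tested genes would fall under that limit. The NF10 number lay below this share, so the 0 calls at NF10 do not show that the KD had no effect there. The NF10 test had no block for the replicate numbers. The 10 most abundant genes took 5.58%, 2.7% and 2.69% in NF10 control replicates 1 to 3. In NF10 KD replicates 1 to 3 they took 5.56%, 2.45% and 2.08%. The part of shared replicate numbers in the NF10 count was not tested.

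The genes called at NF16 were then read at NF24. The study reports that KD explants of the tailbud stage came apart into single cells and that their RNA profiles clustered unevenly. A gene that did not pass the NF24 test is thus not shown to have recovered. Rising genes lower at NF16 had a median log2 change of -0.36 at NF24, and falling genes higher at NF16 had 0.38. Flat genes had -0.23 where they were lower at NF16 and 0.26 where they were higher. The smaller sets stood at 0.66 for rising genes higher at NF16, -0.19 for falling genes lower, 1.24 for other genes higher and -0.26 for other genes lower. Each median kept the sign of NF16, against medians of 1.55 and -2.07 over all higher and all lower genes at NF16. Single genes could be as far apart at NF24 or further, as Xetrov90019681m.g was on the log2 scale (3.6 at NF16, 4.71 at NF24). The genes were chosen for a large change at NF16, so part of the drop in size is built in, and the NF24 controls also served to define the classes. Over whole classes the NF24 medians were -0.16 for rising and 0.12 for falling genes, and the NF10 medians were 0.05 and -0.04.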

How the data were processed

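RNA was sequenced from pooled X. tropicalis ACs. Per the labels, RNA was freed of DNA and ribosomal RNA and made into directional libraries. The authors mapped paired reads with STAR to the Xenbase genome and had the same run write raw counts per gene, which were deposited without normalization. The submitters' processing notes name STAR 2.4.2a, whereas the study's methods name a later version. The multimapping tally is 0 in each library, so genes with near-identical copies may be undercounted. Per the labels 1 kit removed ribosomal RNA, whereas the methods name an alternative kit as well.

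The strand column with the larger total was used. The 4 tally lines stayed out of library sizes and tests. Genes read (1 or more) in 75% of the NF16 libraries, thus in 3 of 4, were tested with edgeR 4.0.16 in R 4.3.3, by the quasi-likelihood test with TMM factors and Benjamini-Hochberg adjustment over all 12389 genes, at a threshold of 0.05. The study used DESeq2, here an alternative (1.42.0). The SE was approximated as the log2 change divided by the square root of F. CPM used TMM factors computed over the 16 libraries, and class levels used a prior count of 2.

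Control and KD titles share replicate numbers. Neither labels nor methods say that these numbers pair libraries, so they were not taken as pairs. Deviations from the group means correlated at -0.124 between libraries of one number. With 2 libraries in each group, the crossed pairing must give the same value with the opposite sign, so the correlation cannot decide the pairing. The numbers carried by the deposited NF16 files differ from those of the titles, and under them control replicate 2 and KD replicate 1 share a number (that crossed pairing correlated at 0.124). No source says whether either numbering marks a shared batch. Stage effects were compared as interactions over 16 libraries. Named genes passed the threshold with the greatest log2 change in either direction, with a mean of 5 CPM or more at NF16, with separate groups and no NF10 reads, or else with a mean under 0.1 CPM at NF10, and at most 2 identifiers each way are printed. No identifier matched the RefSeq gene table, so the marker and pathway lists were not used. The members, lists and rules were chosen with earlier results of these data known. The code was tested on simulated counts.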

Additional observations from a re-analysis of the deposited data

Results flagged for a closer look

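Interaction tests of edgeR found a KD effect that was unequal between stages for 485 genes between NF16 and NF10 and for 206 genes between NF24 and NF16. Among the 4 identifiers described, only Xetrov90013083m.g passed the second test, with effects that differed by 5.48 on the log2 scale. No identifier described passed the first test, where their adjusted p ran from 0.0699 to 0.554 (edgeR).

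Read categories outside the counted genes were higher in both NF16 KDs than in the NF16 controls. The opposite-strand share was 1.55% and 1.45% in the KDs, against 1.20% to 1.23% in the NF16 controls, 1.21% to 1.91% in the NF10 controls and 1.76% to 4.05% in the NF24 controls. The outside-gene share was 36.7% and 32.1%, against 31.2% to 31.4% in the NF16 controls, 22.6% to 28.7% in the NF10 controls and 39.3% to 47.7% in the NF24 controls. Both shares of the NF16 KDs thus lay between the lowest and the highest control of the 3 stages. Their part in the gene results was not tested.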

How the results depend on the processing

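The NF16 count of 2536 genes stayed between 1816 (all 6 groups in one fit) and 3198 (DESeq2) under other tests, scalings, filters, the unstranded column, thinning to the smallest NF16 total and the replicate block. The block gave 2137 genes, 2049 of them among the 2536, with the numbers of the titles. A crossed replicate block, added after the data had been seen, gave 3874. It joins the control and KD library that share a number in the deposited files. Which numbering pairs the libraries, if any, is not known. A minimum log2 change of 1 gave 840 genes, 157 higher and 683 lower. Leaving out each NF16 library gave 1025 to 3267 genes, with 182 to 1442 higher and 843 to 1854 lower, and 1002 of the 1025 genes left without control replicate 1 were among the 2536. With 1 library in a group, that library is assumed to vary like the others. Of the genes without NF10 reads, 9 in the main test, 15 were called with no filter, 15 with 2 of 4 libraries, 15 in the unstranded column, 3 at a minimum log2 change of 1 and 0 with a filter over all 16 libraries, which removes them by construction, and 2 to 12 when each library was left out.

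The interaction counts moved most. DESeq2 gave 1340 genes for NF16 against NF10 and 960 for NF24 against NF16, and the replicate block 2139 and 1757. Leaving out each library gave 50 to 583 and 8 to 318. Libraries of other stages moved them by over 1.5 times as well. The first count was 308 without NF10 control replicate 1, 261 without NF10 control replicate 3 and 297 without NF24 control replicate 2. The second was 64 without NF24 control replicate 1, 24 without NF24 control replicate 2, 95 without NF24 KD replicate 1 or 2, and 318 without NF24 KD replicate 3. When classes needed a control difference of at least 2, rising genes held 67% of the lower genes (21.8% of tested genes) and falling genes 42.6% of the higher genes (13.8% of tested genes). The 4 identifiers kept their direction and stayed under the threshold in each alternative. Apart from settings that say so by construction, the cause of these changes was not tested. With 2 libraries a side, exact tests of single values cannot pass 0.05, and genes under 2.33 CPM were called in 4.8% of cases.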
